A study of Homo sapiens with 8 samples.

Results

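The miR-378 family comprised the 6 mature miRNAs hsa-miR-378a-3p, hsa-miR-378a-5p, hsa-miR-378c, hsa-miR-378d, hsa-miR-378i and hsa-miR-422a, selected by name from the 2588 mature miRNA names of the small RNA-seq table, and entries sharing a name were summed. Levels were compared among 4 parental human cancer cell lines, namely ovarian cancer ES-2, melanoma MV-3, hepatocellular carcinoma Huh-7 and lung adenocarcinoma A-549 cells. All lines were grown in DMEM with 10% FBS and seeded for 48 h before total RNA was extracted, and none was treated or genetically modified. Each line was represented by 2 replicate libraries, 8 in all, holding 1173902 to 2670030 miRNA reads. The study describes the replicates as biological, while the labels only number them.

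MIR378A lies inside PPARGC1B, the gene of the transcriptional coactivator PGC-1β, which promotes mitochondrial biogenesis and fatty acid oxidation. Host transcript and hairpin can be made together, and the hairpin is processed into miR-378a-3p and miR-378a-5p, its 2 arms. In muscle and liver these arms are known as regulators of mitochondrial metabolism, with carnitine O-acetyltransferase (CRAT) and the Mediator subunit MED13 among the described targets. A miRNA guides Argonaute to mRNAs mainly through its seed, bases 2 to 8 from the 5′ end, so miRNAs sharing a seed can pair with the same sites. miR-422a, named apart from the family, is known for targeting CYP7A1, the rate-limiting enzyme of bile acid synthesis.

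The mature sequences, from RefSeq on GRCh38.p14, are shown because 4 of the members share a seed (capitals) and differ elsewhere by few bases. A sequence was found for 5 of the 6 members, the exception being miR-378d.
hsa-miR-378a-3p: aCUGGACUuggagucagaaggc
hsa-miR-378c: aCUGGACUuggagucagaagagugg
hsa-miR-378i: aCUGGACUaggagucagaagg
hsa-miR-422a: aCUGGACUuagggucagaaggc
hsa-miR-378a-5p: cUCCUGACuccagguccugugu

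Counted from the 5′ end of miR-378a-3p, with its base first, miR-378i differed by U9A, miR-422a by G10A and A12G, and miR-378c by G21A and C22G plus extra bases at its 3′ end. miR-378c was thus identical to miR-378a-3p over its first 20 bases, and a read ending within them cannot separate them. How the authors treated reads aligning to several places was not given in the sources used here, so reads of these 4 members may have been shared or lost among them. miR-378a-5p has another seed and was not affected by this similarity. For miR-378d no sequence was at hand to compare, so whether its reads were affected is not known. Of 2370 mature names searched, which lacked miR-378d and miR-378e, 7 carried the seed CUGGACU. All 7 belonged to the miR-378 names or miR-422a, leaving 0 elsewhere among the names searched.

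The hairpins are dispersed over the genome (GENCODE v44 on GRCh38). MIR378A lies at chr5:149732825-149732890 on the plus strand, in intron 1 of PPARGC1B, 2527 bases downstream of the start of its host. MIR378C (chr10:130962588-130962668, minus strand) and MIR422A (chr15:63870930-63871019, minus strand) are intergenic. MIR378I (chr22:41923222-41923297, minus strand) lies in exon 3 of TNFRSF13C, the B cell receptor for BAFF, in untranslated sequence. Of the loci of miR-378d, MIR378D1 (chr4:5923275-5923328, minus strand) is in intron 7 of C4orf50. Each locus gives the family a separate place of transcription, whereas the 2 arms of MIR378A share a hairpin.

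Nearly all family reads were miR-378a-3p. Over the 8 libraries it had 5813 reads, 96.1% of the reads of the 6 members, against 171 reads (2.83%) for miR-378a-5p, 41 (0.678%) for miR-378c, 10 for miR-378d, 9 for miR-378i and 4 for miR-422a. Within a library its share of family reads ranged from 93.8% (Wilson 95% interval 91.3 to 95.7) in MV-3 replicate 1 to 99.2% (98.3 to 99.6) in Huh-7 replicate 1. Taking 3 reads as the limit that a count of 0 allows, which corresponds to 0.845 to 2.45 normalised CPM depending on the library, miR-378a-3p was above it in 8 of 8 libraries, miR-378a-5p in 7 and miR-378c in 6. miR-378d and miR-378i were above it in 1 library each and miR-422a in 0. Intervals and limits cover counting error only, since PCR copies were not separable from molecules. Of the 6 further miR-378 names in the table, miR-378e had 1 read in 1 library and the other five had none.

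**Figure D1:**
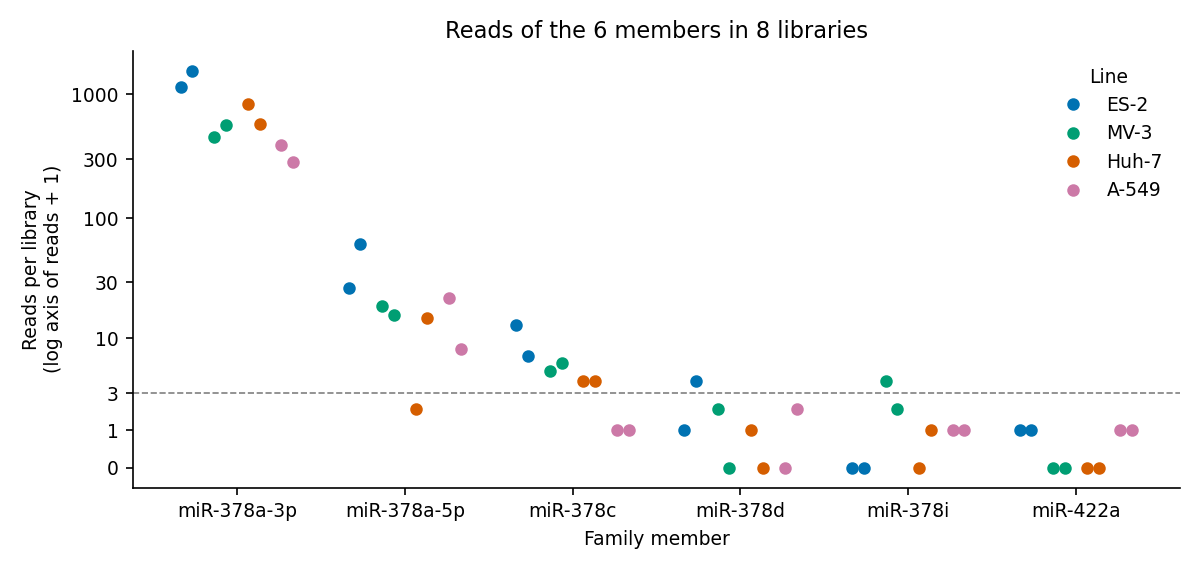
Reads of each of the 6 members (x axis) in each of the 8 libraries (points, colored by line) on a log axis of reads + 1, with a dashed line at 3 reads. miR-378a-3p had 284 to 1552 reads in every library, while miR-378d, miR-378i and miR-422a had 4 or fewer.

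miR-378a-3p was highest in ES-2 and lower in the other three lines. Values are given as normalised CPM, the deposited reads per 1000000 after scaling by the trimmed mean of M values (TMM), which sets libraries to a common level over most miRNAs. In ES-2, miR-378a-3p reached 799.7 normalised CPM in replicate 1 (Poisson 95% interval 754 to 847) and 797 in replicate 2 (758 to 838). The MV-3 libraries held 338 and 311 normalised CPM, those of Huh-7 235 and 196, and those of A-549 243 and 232. The ES-2 values lay far above all others, the MV-3 values came next, and the libraries of Huh-7 and A-549 overlapped.

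ES-2 had a mean level of 798 ± 1.88 normalised CPM, MV-3 of 324 ± 19.6, A-549 of 237 ± 7.26 and Huh-7 of 215 ± 27.9 (SD, n = 2 each). This put ES-2 2.46-fold above MV-3, 3.36-fold above A-549 and 3.71-fold above Huh-7. By reads, miR-378a-3p ranked 71 among the miRNAs of both ES-2 libraries, whereas MV-3 gave ranks 94 and 99, Huh-7 ranks 113 and 121, and A-549 ranks 127 and 129. With 667 to 946 entries holding reads per library, it lay in the upper part of the detected miRNAs in each line, though far from the top.

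The order below ES-2 depended on the scale. In library CPM, the reads per 1000000 miRNA reads of a library without the TMM factor, the ES-2 mean of miR-378a-3p was 684 ± 11.6, followed by MV-3 with 377 ± 16.9, Huh-7 with 359 ± 35.8 and A-549 with 143 ± 6.89 (SD, n = 2 each). ES-2 remained highest, 1.81-fold above MV-3, 1.91-fold above Huh-7 and 4.80-fold above A-549. Huh-7 and MV-3 overlapped on this scale, whereas Huh-7 and A-549 overlapped in normalised CPM. TMM factors differed up to 2.87-fold between libraries, smallest in A-549 and largest in Huh-7. Summed hepatocyte markers miR-122-5p and miR-885-5p amounted to 84424 to 89378 normalised CPM in Huh-7 against 3.27 to 40.7 elsewhere, and their part in the scaling was not tested.

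**Figure D2:**
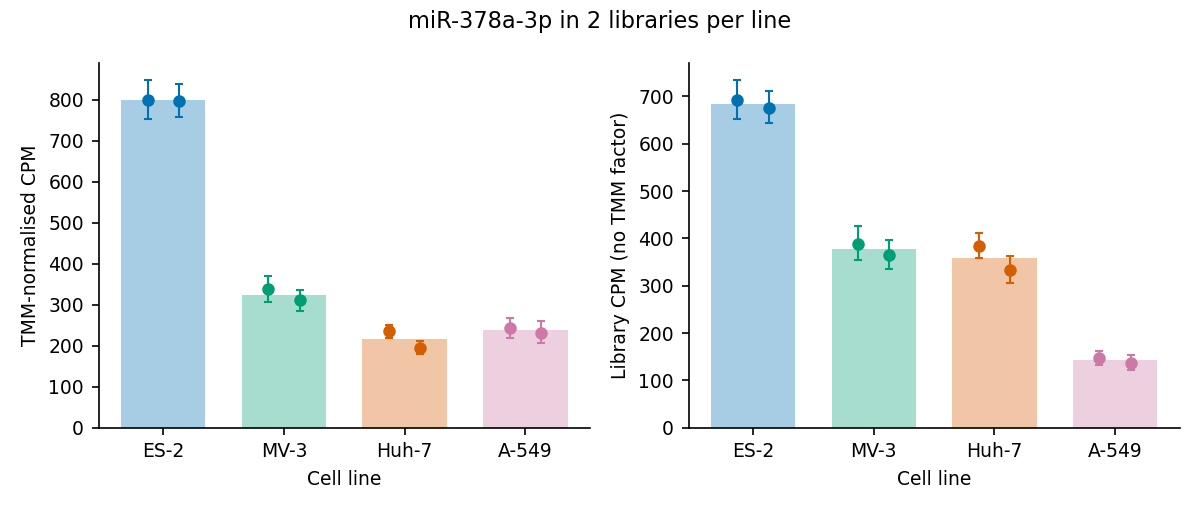
miR-378a-3p in each library (points, with Poisson 95% intervals of the read count) and the mean of the 2 libraries of a line (bars), as TMM-normalised CPM (left) and library CPM (right). ES-2 was highest in both panels, while A-549 was level with Huh-7 on the left (237 and 215) and below it on the right (143 and 359).

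In limma's test over the 528 miRNAs that passed the filter on low counts, miR-378a-3p was lower than in ES-2 in every other line at an adjusted p below 0.01, the threshold used for all fits across miRNAs. The log2 fold change was −1.89 in Huh-7 (SE 0.11, limma adjusted p = 1.5e-05), −1.75 in A-549 (adjusted p = 3.12e-05) and −1.30 in MV-3 (adjusted p = 0.000221), with the same SE. Lower calls against ES-2 made up 21.6% of all tested miRNAs for Huh-7, 17.6% for A-549 and 14.2% for MV-3. Higher and lower calls numbered 146 and 114 with TMM but 246 and 87 with library size only for Huh-7, 125 and 93 but 109 and 138 for A-549, and 61 and 75 but 82 and 56 for MV-3. A call below ES-2 in all 3 lines was made for 35 of 528 miRNAs (6.63%), miR-378a-3p among them. Each of these calls on miR-378a-3p was made in 18 of 18 alternative analyses, 8 of which left out a library.

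Among the lower lines differences were smaller. Huh-7 was below MV-3 by a log2 fold change of −0.59 (SE 0.11, limma adjusted p = 0.00408), against a background of 20.1% of miRNAs called lower, but this call was kept in only 8 of 18 alternatives and in 1 of the 8 that left out a library. Scaled by library size only, the same difference was −0.08 (limma adjusted p = 0.564). Between A-549 and MV-3 the log2 fold change was −0.45 (limma adjusted p = 0.0161) and was not called, where 39.6% of miRNAs were called in either direction. Between A-549 and Huh-7 it was 0.15 (limma adjusted p = 0.299), also not called, where 52.3% of miRNAs were. Under library size only the latter difference turned to −1.32 (limma adjusted p = 4.46e-05). Higher and lower calls numbered 142 and 106 with TMM but 205 and 93 with library size only for Huh-7 against MV-3, 127 and 82 but 79 and 161 for A-549 against MV-3, and 151 and 125 but 110 and 264 for A-549 against Huh-7. Jointly over the 4 lines miR-378a-3p was called (limma adjusted p = 3.49e-05), as were 68.2% of miRNAs.

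A scaling factor shifts all miRNAs of a library nearly alike, so fold changes were also expressed relative to the median of all tested miRNAs, which removes such a shift by construction. That median shifted by up to −1.56 on the log2 scale, between A-549 and Huh-7 under library size only. After subtracting it, miR-378a-3p in Huh-7 against ES-2 stood at −2.23 with TMM and −2.14 with library size only. The corresponding values were −1.30 and −1.22 for MV-3 against ES-2. For A-549 against ES-2, TMM gave −1.75 and RLE, the size factors of DESeq2, also −1.75, with library size only lying further below. For A-549 against Huh-7 the value was 0.24 with TMM, 0.24 with library size only and 0.37 with RLE.

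**Figure D3:**
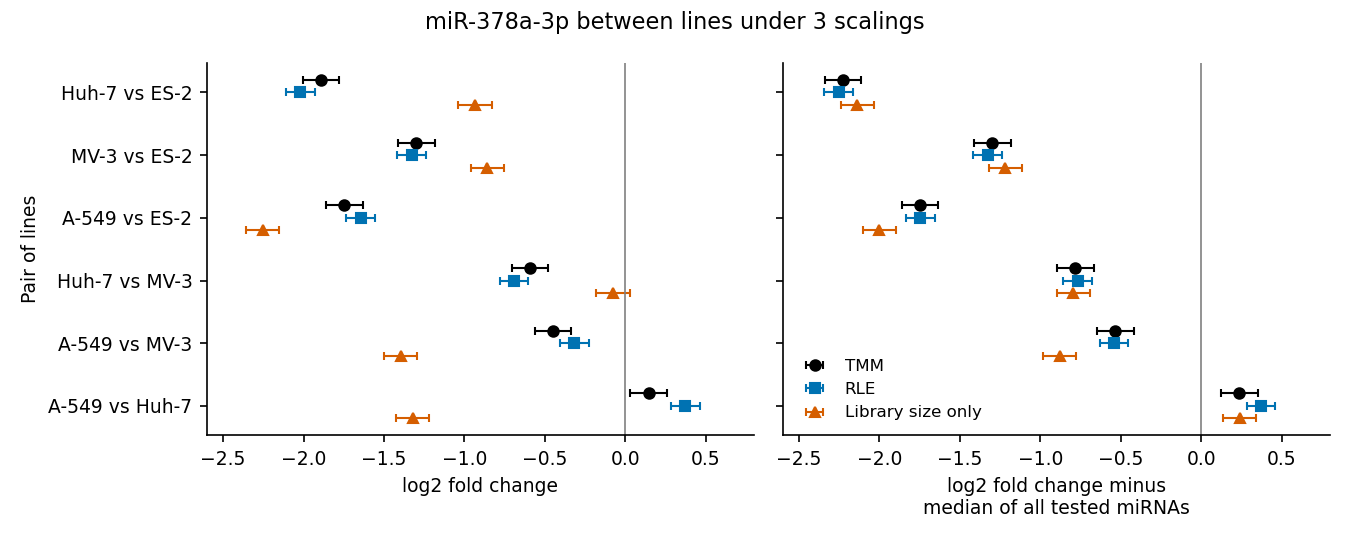
log2 fold change of miR-378a-3p in the 6 pairs of lines (points, error bars 1 SE of the limma fit) under TMM, RLE and library-size scaling, as fitted (left) and after subtracting the median of all tested miRNAs (right). On the left A-549 vs Huh-7 lies at 0.15 with TMM and −1.32 with library size only, and on the right both lie at 0.24, with RLE at 0.37.

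miR-378a-5p, the other arm of the PPARGC1B hairpin, was detected at far lower levels and no pair of lines was called. The ES-2 libraries held 27 and 62 reads (18.7 and 31.8 normalised CPM), those of MV-3 19 and 16 (14.1 and 8.78), those of Huh-7 2 and 15 (0.563 and 5.12) and those of A-549 22 and 8 (13.5 and 6.54). ES-2 held both the highest values, Huh-7 the lowest, and MV-3 overlapped A-549. ES-2 averaged 25.3 ± 9.26 normalised CPM, MV-3 11.4 ± 3.74, A-549 10.0 ± 4.95 and Huh-7 2.84 ± 3.22 (SD, n = 2 each).

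The largest fitted difference, Huh-7 against ES-2, was a log2 fold change of −3.04 (SE 0.75, limma adjusted p = 0.0125). It rested on Huh-7 libraries that differed from each other by 3.19 on the log2 scale. Without Huh-7 replicate 1, which had 2 reads, it became −2.06 (limma adjusted p = 0.0685), and without Huh-7 replicate 2 −4.03 (limma adjusted p = 0.0099). DESeq2 called it at an adjusted p of 0.00741. The joint comparison gave a limma adjusted p of 0.0421. At an unadjusted limma p below 0.05, 2 of the 6 pairs passed, both of them lower in Huh-7, and edgeR's quasi-likelihood test with adjustment called 0. Of the 6 members, only the arms of MIR378A passed the filter, so the remaining members had no test between pairs in this fit. Without the filter, no other member was called in any pair, with miR-378c in A-549 against ES-2 giving the lowest adjusted p (log2 fold change −1.99, limma adjusted p = 0.0293). Without ES-2 replicate 2, miR-378c passed the filter and was called in Huh-7 (−2.16) and A-549 (−2.55) against ES-2. It was also called in A-549 against MV-3 (−1.39), which rested on 1 and 1 reads against 5 and 6. With all 8 libraries and no filter, that difference was not called (limma adjusted p = 0.104). ES-2 was then represented by replicate 1 alone, which held the most miR-378c reads (13). miR-378c thus passed the filter through this ES-2 library, so none of these calls is an independent test. When any single MV-3, Huh-7 or A-549 library was left out, miR-378c also passed the filter but was called in no pair.

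The balance of the 2 arms, which does not depend on how a library is scaled, showed no difference between lines detectable above the spread of the replicates. Of the reads of both arms, miR-378a-5p made up 2.29% and 3.84% for ES-2, while MV-3 gave 3.99% and 2.75%, and A-549 5.29% and 2.74%. In Huh-7 it was 0.239% (Wilson 95% interval 0.0656 to 0.867) in replicate 1 and 2.55% (1.55 to 4.17) in replicate 2. All but Huh-7 replicate 1 lay between 2.29% and 5.29%. The highest and lowest line differed by 2.20 in the log2 ratio of miR-378a-5p to miR-378a-3p (exact permutation test of F over 105 partitions of the 8 libraries, p = 0.352, 0.44 after Benjamini-Hochberg adjustment over 5 ratios). This range was 0.61 without Huh-7 replicate 1 and 3.79 without Huh-7 replicate 2.

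miR-378c, encoded on chromosome 10, was detected at the level of a few reads and also had its highest value in ES-2. ES-2 held 13 and 7 reads (9.02 and 3.59 normalised CPM), MV-3 5 and 6 (3.70 and 3.29), Huh-7 4 and 4 (1.13 and 1.37), and A-549 1 and 1 (0.616 and 0.818). ES-2 replicate 2 lay between the MV-3 libraries, and both A-549 libraries were under the limit of 3 reads. As a share of its sum with miR-378a-3p, miR-378c ranged from 0.253% (Wilson 95% interval 0.0447 to 1.42) in A-549 replicate 1 to 1.12% (0.653 to 1.90) in ES-2 replicate 1. The log2 ratio to miR-378a-3p differed by 1.39 between the highest and lowest line (exact permutation test of F, p = 0.219, adjusted 0.365).

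**Figure D4:**
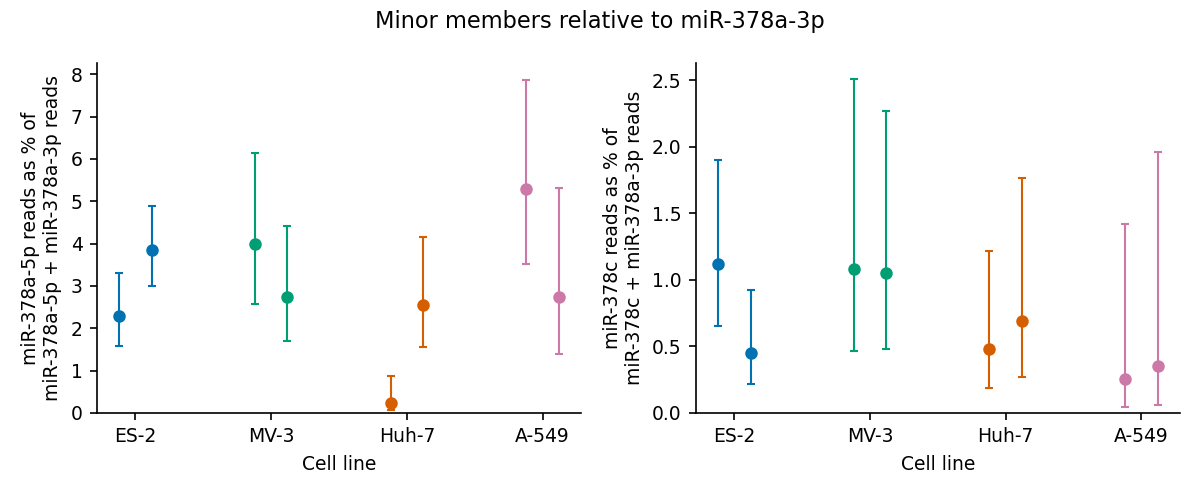
Reads of miR-378a-5p (left) and miR-378c (right) in each library (points, with Wilson 95% intervals) as a percentage of their sum with miR-378a-3p. The left panel spans 0.239% to 5.29% and the right panel 0.253% to 1.12%, with overlapping lines in both.

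The remaining members were near the limit of detection. For miR-378d, ES-2 held 1 and 4 reads, MV-3 2 and 0, Huh-7 1 and 0, and A-549 0 and 2. Its chromosome 4 entry held 3 of the 10 reads, all in ES-2. The other 7 were on the entry of MIR378D2 on chromosome 8, in exon 1 of the long non-coding RNA MIR378D2HG and within intron 1 of PDP1, which lies on the opposite strand. Both entries carry the same mature name, and treatment of reads aligning to several places was not given. This split may therefore not reflect the locus of origin. For miR-378i, MV-3 held 4 and 2 reads, ES-2 0 and 0, Huh-7 0 and 1, and A-549 1 and 1. By Poisson 95% intervals, the 0 reads in ES-2 allowed up to 2.56 and 1.89 normalised CPM. The MV-3 libraries were at 2.96 (interval from 0.807) and 1.10 (from 0.133), so these ranges overlapped. Without the filter, limma gave miR-378i a log2 fold change of 1.53 in MV-3 against ES-2, which was not called (unadjusted p = 0.00933, adjusted p = 0.0622). miR-422a had 1 read in each ES-2 and A-549 library and 0 in the MV-3 and Huh-7 libraries. In exact permutation tests of their ratios to miR-378a-3p, p was 0.819 for miR-378d (adjusted 0.819), 0.0190 for miR-378i (adjusted 0.0952) and 0.0381 for miR-422a (adjusted 0.0952), where 0.00952 is the smallest p the 8 libraries allow. With 0.1 instead of 0.5 reads added to each count, both latter adjusted values became 0.0476, on the other side of the threshold of 0.05 used for the ratios. The log2 ratios of miR-422a in ES-2 (−9.80) and A-549 (−7.80) rested on equal counts, so they differed through the miR-378a-3p reads alone. Ratios from a count of 0 likewise followed the miR-378a-3p reads and the reads added.

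Summed over the 6 members, the family followed miR-378a-3p. ES-2 held 829 and 835 normalised CPM of the family, MV-3 360.5 and 324, Huh-7 237 and 203, and A-549 258 and 243. The mean share of all miRNA reads was 0.0713% for ES-2, against 0.0398% for MV-3, 0.0366% for Huh-7 and 0.0151% with A-549 (n = 2 each). Since reads of near-identical members are added, the sum is unaffected by how such reads were divided among them. It would be affected by reads that were discarded or counted at several places.

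Among 180 miRNAs outside the family that averaged 100 normalised CPM or more, miR-625-3p followed miR-378a-3p most closely over the 8 libraries (Pearson r = 0.953 on log2 normalised CPM). ES-2 averaged 433 normalised CPM of it and MV-3 174, against 51.4 with Huh-7 and 55.9 with A-549. Next were let-7c-5p (r = 0.887), miR-125b-5p (0.865), miR-29b-1-5p (0.862) and miR-671-5p (0.858). All values come from the same libraries, with 2 per line, and describe likeness only. In library CPM, miR-625-3p, let-7c-5p and miR-671-5p ranked 1, 2 and 3, whereas miR-125b-5p and miR-29b-1-5p fell to ranks 14 and 23.

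A list of other miRNAs hosted by metabolic genes was examined beside miR-378a-3p. It held miR-33a and miR-33b (both arms), from introns of the sterol regulators SREBF2 and SREBF1, and miR-103a-3p and miR-107, from introns of pantothenate kinase genes. Of 6 listed miRNAs, 4 passed the filter, and 0 were called lower than in ES-2 in any line by limma or edgeR, with 2 of them lower in MV-3 and 2 in A-549 at an unadjusted limma p below 0.05. With 4 miRNAs tested and 14.2% to 21.6% of all miRNAs called lower, this count does not set the list apart. With library size only, 3 were called lower in A-549. That scaling gave 138 lower calls among all tested miRNAs for this pair, against 93 with TMM, and a median log2 fold change of −0.25. The percentages above belong to TMM, and the count of 3 was not tested against the library-size background. miR-103a-3p, the most abundant, was at 13624 ± 410 normalised CPM for MV-3, 12284 ± 511 for Huh-7, 7470 ± 239.7 for ES-2 and 7353 ± 436 for A-549 (SD, n = 2 each). It was called higher than in ES-2 in MV-3 (log2 fold change 0.87, limma adjusted p = 0.00011) and in Huh-7 (0.72, limma adjusted p = 0.000105). Among the other lines it gave the list's only calls, being lower in A-549 than in MV-3 (−0.89, limma adjusted p = 6.85e-05) and than in Huh-7 (−0.74, limma adjusted p = 9.42e-05). miR-107 averaged 165 normalised CPM with ES-2 and 153 with Huh-7, against 113 with MV-3 and 112 with A-549. miR-33a-5p averaged 8.88 normalised CPM with ES-2 and 6.08 with Huh-7, against 1.75 with MV-3 and 0.818 with A-549, with a limma adjusted p of 0.0121 for A-549 against ES-2. The list's median log2 fold change against ES-2 was 0.24 for Huh-7, −0.18 for MV-3 and −0.29 for A-549, where the medians of all tested miRNAs were 0.34, 0.00 and 0.00.

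Marker miRNAs placed these levels in context. Markers of striated muscle, a tissue rich in miR-378a, summed to 0 to 17.9 normalised CPM over all libraries. The hepatocyte markers were abundant in Huh-7 as labelled, and the 5 epithelial markers of the miR-200 family summed to 2273 to 2339 normalised CPM in Huh-7 and 1605 to 1726 in A-549, against 29.6 to 60.4 in ES-2 and MV-3. Most of the Huh-7 and A-549 sums was miR-200b-3p, averaging 1853 and 1354. miR-141-3p went the other way, averaging 5.25 in ES-2, 1.08 in Huh-7 and 0.409 in A-549. Against ES-2, miR-200c-3p was not called in Huh-7 (limma adjusted p = 0.0231) or A-549 (limma adjusted p = 0.157). All 4 melanocyte markers, miR-211-5p among them, had 0 reads in both MV-3 libraries, labelled as melanoma-derived, where a count of 0 allows up to 2.22 and 1.65 normalised CPM per miRNA. They also had 0 reads in the ES-2 and A-549 libraries and summed to 4.44 to 4.51 normalised CPM in those of Huh-7. The 6 blood markers summed to 353 to 385 normalised CPM with ES-2 and 114 to 116 with MV-3, against 779.7 to 789 with Huh-7 and 316 to 358 with A-549. In ES-2 this was nearly all miR-142-3p (357 ± 27.5, SD, n = 2), which had 0 reads in the other lines, and elsewhere miR-486-5p. miR-142-3p was thus high in the line with the highest miR-378a-3p, and its relation to that level was not tested.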

How the data were processed

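Small RNA libraries (NEXTflex Small RNA kit v3, 50 ng total RNA, Illumina HiSeq) were grouped by the line and replicate number in their labels. Per the submitters' processing notes and the study's methods, reads were trimmed with cutadapt 1.14, aligned to GRCh38 (hg38) with Bowtie2 2.3.2 and counted on miRBase 21 with featureCounts 1.5.3. Use of strand, treatment of reads aligning to several places, and use of the random adapter bases were not given in the sources used here. The authors deposited a signal per miRNA, CPM scaled by TMM in edgeR 3.18.1 (normalised CPM). Each value was a whole multiple of a constant of its library (100% of values at a tolerance of 0.001), from which reads were recovered. The table held 2813 entries for 2588 names.

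limma 3.58.1 (R 4.3.3, trended prior) was fitted to log2(normalised CPM + 1) with 1 term per line over all 8 libraries (4 residual degrees of freedom), after filterByExpr (minimum count 10) left 528 miRNAs. The added 1 shrinks fold changes of sparsely counted miRNAs. P-values were adjusted by Benjamini-Hochberg over all 528, with calls below 0.01. Ratios of members were log2 of reads with 0.5 added, tested by exact permutation (called at an adjusted p below 0.05). edgeR 4.0.16 (quasi-likelihood), DESeq2 1.42.0, RLE and library-size scaling, other filters and pseudocounts, the highest entry of a name, and omission of each library were alternatives. Scripts were tested on simulated data. Named were the 6 members, further miR-378 names, miRNAs sharing the seed, the 5 most similar miRNAs, miRNAs of metabolic host genes, and markers of hepatocytes, melanocytes, epithelium, striated muscle and blood. The members and lists were chosen with earlier results of these data known.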

Additional observations from a re-analysis of the deposited data

How the results depend on the processing

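The lower level of miR-378a-3p than in ES-2 was called in 18 of 18 alternatives, with a log2 fold change of −2.03 to −0.93 (Huh-7), −1.36 to −0.86 (MV-3) and −2.25 to −1.64 (A-549). Of the 6 members, 2 passed the filter and were tested. Members called numbered 1 in each pair with ES-2, 1 in Huh-7 against MV-3, 0 in the other two pairs and 1 jointly. Over all 528 tested miRNAs, calls against ES-2 numbered 260 for Huh-7, 136 for MV-3 and 218 for A-549. They numbered 248 for Huh-7 against MV-3, 209 for A-549 against MV-3, 276 for A-549 against Huh-7 and 360 jointly. Huh-7 against ES-2 had 2 with DESeq2 (232 miRNAs called in all) and 2 at an adjusted p below 0.05, the second being miR-378a-5p. Huh-7 against MV-3 had 0 with library size only (298 miRNAs called in all), 0 with no filter (261) and 0 with only the 2 lines fitted (255). A-549 against MV-3 had 1 with library size only (240 miRNAs called in all) and 1 at an adjusted p below 0.05. A-549 against Huh-7 had 1 with RLE (miR-378a-3p at 0.37), where 278 miRNAs were called in all. It had 1 with library size only (374 called in all), which reversed miR-378a-3p to −1.32. The joint count was 2 at an adjusted p below 0.05, a threshold for which calls over all miRNAs are not given here. With 0.1 reads added, the lines spanned 6.27 in log2 ratio for miR-378i and 4.51 for miR-422a. Leaving out each library gave 1 to 2 members for Huh-7 or A-549 against ES-2, 1 for the pair of MV-3 and ES-2, 0 to 1 for either pair with MV-3, 0 for A-549 against Huh-7 and 1 to 2 jointly. Huh-7 against MV-3 kept its call only without Huh-7 replicate 1. miR-378c was the added member without ES-2 replicate 2, when a line with 1 library, assumed to vary like the others, lowered the filter. miR-378a-3p was called lower in A-549 than MV-3 without either Huh-7 library. miR-378a-5p in A-549 against MV-3 spanned −0.69 to 0.26, reversed without MV-3 replicate 1 (0.10) or A-549 replicate 2. Its line range in log2 ratio was 0.61 to 3.79. Other causes of these changes were not tested.

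edgeR on recovered reads called 260, 138, 204, 241, 213 and 282 in the 6 pairs, limma 260, 136, 218, 248, 209 and 276. The labels do not pair replicate numbers, and replicate differences correlated at −0.05 to 0.23 between lines. With a replicate block miR-378a-3p in Huh-7 against ES-2 was at −1.89, 249 miRNAs were called there, and no call on a member changed. miR-378d, miR-378i and miR-422a had 4 reads or fewer per library, which limits their precision.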
